A study of Homo sapiens with 6 samples.

Results

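The sensors and off-switches of the integrated stress response (ISR) were examined as a group of 8 genes, out of 60651 gene identifiers in the count files. The genes were taken by name, through their Ensembl identifiers, and every one of the 8 had a single identifier and passed the count filter. They are the eIF2-alpha kinases EIF2AK1 (HRI), EIF2AK2 (PKR), EIF2AK3 (PERK) and EIF2AK4 (GCN2), the mitochondrial relay OMA1 and DELE1, and the phosphatase subunits PPP1R15A (GADD34) and PPP1R15B (CReP). The rule that chose them uses no measured value, but it was written with earlier results of these data known.

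The libraries came from SK-N-AS, an established human neuroblastoma line without MYCN amplification, carrying a MYCN gene that a tetracycline repressor (TR) holds off until tetracycline is added. The cells were single clones, kept under 500 µg/ml G418-BC and 5 µg/ml blasticidin in both groups. The 3 control libraries carry ETOH in their titles and the 3 MYCN-induced libraries carry Tet, each with 120 h in the title, and the induced cells received tetracycline for 5 days. No library of cells given tetracycline without the MYCN gene was analysed here, so the effects of tetracycline and of MYCN cannot be told apart. The authors deposited, for each gene, the number of read pairs on its exons, with a pair that touches several genes shared in equal fractions.

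Cells slow protein synthesis under stress by phosphorylating the alpha subunit of eIF2, the factor that brings the initiator tRNA to the ribosome. Each of the kinases answers to a different signal: PERK to unfolded proteins in the endoplasmic reticulum, GCN2 to uncharged tRNA and stalled ribosomes, PKR to double-stranded RNA, and HRI to low heme. HRI also receives a mitochondrial signal, since the protease OMA1 cleaves DELE1, which then binds HRI in the cytosol. GADD34 and CReP recruit protein phosphatase 1 (PP1) to remove the phosphate again, GADD34 being inducible by the response itself and CReP acting constitutively. All of these switches work largely at the protein level, and the values below are mRNA levels.

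Total counts ran from 64500589 to 102249336 per library, and the 8 genes held between 762 and 27277 counts in any library. MYCN, the induced gene, was at 30.3, 35.5 and 32.4 CPM (counts scaled to the TMM-normalized library size) in the control libraries and at 211, 221 and 199 CPM in the induced libraries. MYCN-induced replicate 3 stood apart on the first principal component, with a score of 69.1, where induced replicates 1 and 2 scored 14.4 and 13.1 and the control libraries -40.3 to -25.9. The 7 adrenergic neuroblastoma markers reported here all passed the count filter. Their summed levels were 505 to 761 CPM in control and 572 to 754 CPM in induced libraries, with TH low, at 0.697 to 1.58 CPM in control. With all libraries edgeR called 0 of the 7. ISL1 (log2 fold change -0.55, edgeR adjusted p = 0.0562) and DBH (-0.85, adjusted p = 0.147) were called lower by DESeq2 and without MYCN-induced replicate 3. TH was at -0.60 (edgeR adjusted p = 0.336), and GATA2, GATA3, HAND2 and PHOX2A were above 0. Of 7 mesenchymal markers 6 were tested, at 486 to 509 CPM and 547 to 575 CPM in sum, and CD44 had 0 counts in each library. Of 5 markers of other cell types 3 were tested, summing to at most 2.63 CPM, and CD3E had 0 counts throughout. Of the mesenchymal markers, FN1 was called lower (56.7 to 34.8 CPM, log2 fold change -0.71, edgeR adjusted p = 0.033). FN1 was called in 1 of the 6 fits without 1 library, that without MYCN-induced replicate 3. In that fit VIM, PRRX1 and YAP1 were called higher, as were 3.68% of the 28797 genes tested. With all libraries 4 of the 6 had a log2 fold change above 0. PRRX1 was the highest at 0.72 (edgeR adjusted p = 0.201), and VIM was at 0.30 (edgeR adjusted p = 0.0595, and 0.0084 from DESeq2). NOTCH2 was at -0.40 (edgeR adjusted p = 0.149), and its groups did not overlap. SK-N-AS is usually described as a mesenchymal line, of which CD44 is a marker. The label was followed, and the identity of the cells was not tested.

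EIF2AK3 was the only one of the 8 genes that passed the test. Its mRNA fell to 0.672 of the control level. All levels here are relative to the other RNA of a library, and RNA per cell was not measured. The study describes that high MYCN can amplify transcription broadly, which makes unchanged amounts of other transcripts look lowered. Whether this holds for EIF2AK3 or the other genes here was not tested. No gene of the group was called higher. With edgeR's quasi-likelihood test and a threshold of 0.05 on the adjusted p, 3.4% of the 29086 genes tested were called in either direction, 1.02% higher and 2.38% lower, against 1 of 8 here. The control and induced values did not overlap for 2 of the 8 genes, EIF2AK3 and PPP1R15B, and they did not overlap for 26.3% of all genes tested, so the share of genes without overlap was close to that of the whole table. The median log2 fold change over the 8 genes was 0.06, against -0.000 over all genes tested. DESeq2 called 2 of the 8, the same pair, where it called 7.23% of the genes it tested.

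**Figure D1:**
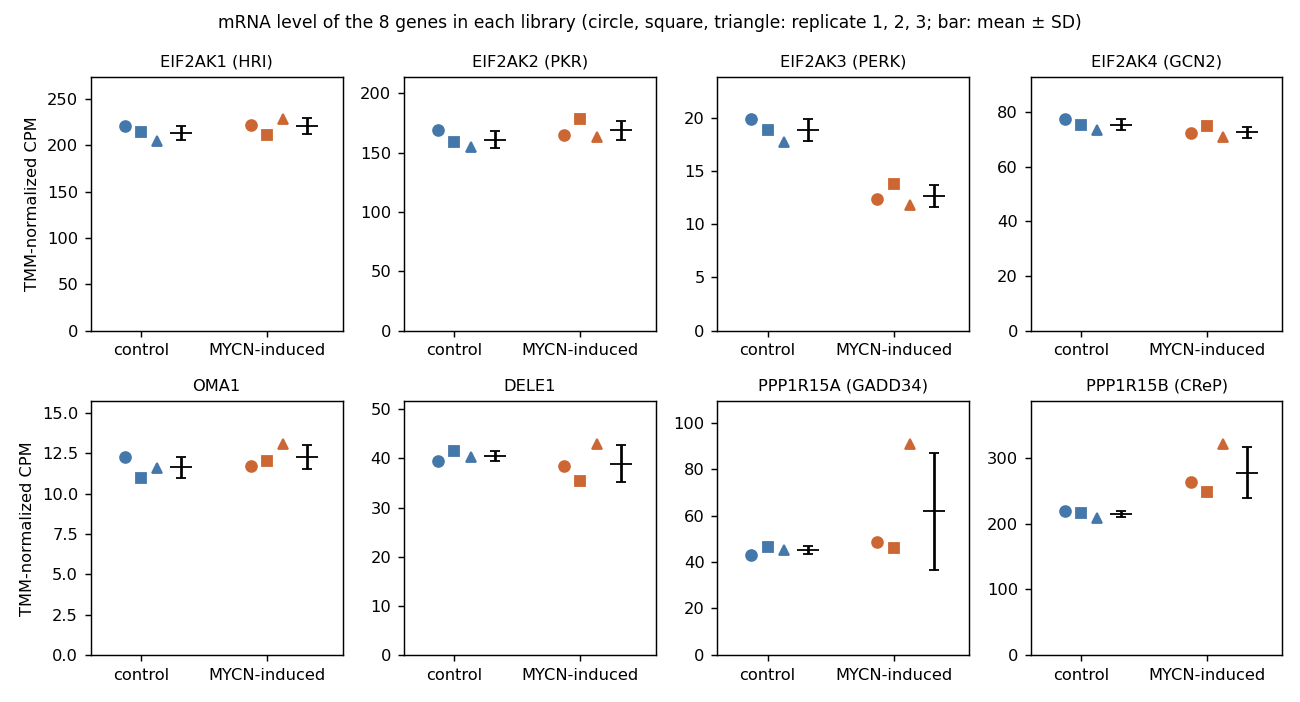
TMM-normalized CPM of the 8 genes in the 3 control (blue) and 3 MYCN-induced (orange) libraries, each panel with its own axis from 0; symbols are replicates and the bar gives the mean ± SD. EIF2AK3 lies lower in each induced library, PPP1R15B lies higher in each, and PPP1R15A is high in induced replicate 3, at 91.0 CPM.

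EIF2AK3 encodes PERK, the kinase of the endoplasmic reticulum. Its mRNA was at 19.9, 18.9 and 17.8 CPM in control replicates 1, 2 and 3 and at 12.4, 13.8 and 11.8 CPM in the induced replicates. Each induced library lay below each control library, at 65.7%, 73.4% and 62.4% of the control mean. The group means were 18.9 ± 1.03 and 12.7 ± 1.06 CPM (SD, n = 3 each), and the log2 fold change was -0.57 (standard error 0.10, 95% interval -0.80 to -0.35, edgeR adjusted p = 0.0241). As a fold, the level was 0.672 of control with an interval from 0.575 to 0.784. By p-value it ranked 443 among the genes tested. DESeq2 gave an adjusted p of 4.873e-05. The size of the fall hardly depended on any single library, with log2 fold changes from -0.64 to -0.51 when each of the 6 libraries was left out in turn. The call did depend on them, since the adjusted p from edgeR was 0.0928, 0.145 and 0.0883 without control replicate 1, 2 or 3 and 0.092 without MYCN-induced replicate 1. Without MYCN-induced replicate 2 or 3 the gene was called, at 0.0397 and 0.0168. In bulk RNA, fewer cells expressing a gene and less RNA per cell cannot be told apart.

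EIF2AK3 (ENSG00000172071.14) lies on the minus strand of chromosome 2 of GRCh38, from 88556741 to 88627464, with 20 exons after merging and 5469 exon bases. Of these bases, 781 are also exon of ENSG00000225420, a long noncoding RNA gene on the opposite strand. The counting, per the file headers, set no strand option, so that pairs from either gene there were split between them. ENSG00000225420 fell as well, from 4.13 to 2.78 CPM (log2 fold change -0.57, edgeR adjusted p = 0.0419), a call that held in 1 of the 6 fits without 1 library, that without MYCN-induced replicate 3. Its counts amounted to between 20.2% and 23.3% of those of EIF2AK3, which bounds the shared part. With every count of the overlapping gene taken away from EIF2AK3, the log2 fold change was -0.58 (edgeR adjusted p = 0.0311), and with every one added it was -0.57 (adjusted p = 0.0205), a pair of settings chosen after the overlap was seen. The fall of EIF2AK3 was therefore as large without the shared counts.

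The promoters of the 3 genes with the largest log2 fold changes are shown (that of PPP1R15A rests on MYCN-induced replicate 3), since these are the stretches in which regulators of the response are usually sought. They are RefSeq sequences of GRCh38.p14, 250 bases before to 50 bases after the start, read 5′ to 3′ on the gene's strand, at chr2:88627415-88627714 (minus) for EIF2AK3, chr19:48872171-48872470 (plus) for PPP1R15A and chr1:204411768-204412067 (minus) for PPP1R15B. Capitals mark matches on either strand to CACGTG, the E-box that MYC proteins bind, to TGATGNAAN, a form of the composite element that ATF4 with C/EBP factors binds, to TGACGTCA, the cyclic AMP response element, or to the core of the interferon-stimulated response element (ISRE), a pair of GAAA repeats spaced by any 2 bases. TGACGTCA and the ISRE core were added to the search after the sequences had been seen.
EIF2AK3: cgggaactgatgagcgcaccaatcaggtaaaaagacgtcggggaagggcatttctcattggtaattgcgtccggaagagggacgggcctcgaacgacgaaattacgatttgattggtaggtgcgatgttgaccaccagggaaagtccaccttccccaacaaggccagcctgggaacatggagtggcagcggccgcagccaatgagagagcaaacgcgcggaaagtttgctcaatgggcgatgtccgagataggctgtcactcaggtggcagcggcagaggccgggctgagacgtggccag
PPP1R15A: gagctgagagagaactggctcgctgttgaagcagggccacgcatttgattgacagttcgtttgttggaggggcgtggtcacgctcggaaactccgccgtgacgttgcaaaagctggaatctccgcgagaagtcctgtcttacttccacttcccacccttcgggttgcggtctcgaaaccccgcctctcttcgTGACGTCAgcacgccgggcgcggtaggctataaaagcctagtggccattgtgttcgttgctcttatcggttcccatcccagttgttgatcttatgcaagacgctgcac
PPP1R15B: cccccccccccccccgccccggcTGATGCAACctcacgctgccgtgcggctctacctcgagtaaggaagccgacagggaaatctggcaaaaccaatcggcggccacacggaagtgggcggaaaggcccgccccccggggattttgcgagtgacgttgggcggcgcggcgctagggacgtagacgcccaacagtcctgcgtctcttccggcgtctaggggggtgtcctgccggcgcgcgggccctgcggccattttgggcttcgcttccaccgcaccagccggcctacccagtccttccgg
The window of EIF2AK3 held none of these letters. That of PPP1R15A held TGACGTCA from position -58, and that of PPP1R15B held TGATGCAAC from position -227, counted from the start. Among the 35116 promoters of the same length in the table, 7.26% held CACGTG, 3.61% held TGATGNAAN, 1.85% held TGACGTCA and 3.57% held the ISRE core. Promoters of 7 of the 8 genes were matched, and apart from those printed only EIF2AK2 held a match, with CACGTG from position -181 and the ISRE core from position -6. The entry for EIF2AK1 was missing. A match describes the letters and is not a measured binding site.

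The other kinases were close to their control levels. EIF2AK1, the heme-regulated kinase and the recipient of the DELE1 signal, was at 221, 214 and 205 CPM in the control and at 222, 211 and 228 CPM in the induced libraries. The values overlapped, and the log2 fold change was 0.05 (95% interval -0.10 to 0.20, edgeR adjusted p = 0.748). As a fold, the interval ran from 0.933 to 1.15. EIF2AK1 (chromosome 7, 6022247 to 6059175, minus strand) shares 532 exon bases with AIMP2, a scaffold of the tRNA synthetase complex on the other strand, and its sign depended on that sharing, with a log2 fold change of -0.02 (edgeR adjusted p = 0.924) when the counts of AIMP2 were taken away.

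EIF2AK2, the kinase of double-stranded RNA, was at 169, 159 and 155 CPM in control and at 165, 178 and 163 CPM in induced libraries. These ranges overlapped as well (log2 fold change 0.07, 95% interval -0.09 to 0.23, edgeR adjusted p = 0.652). The gene (chromosome 2, 37099210 to 37157522, minus strand) shares 436 exon bases with ARL14EPP1 and GPATCH11, whose counts came to between 18.5% and 20.6% of its own. EIF2AK4, which senses amino acid shortage, was at 77.4, 75.5 and 73.5 CPM in control and at 72.5, 74.9 and 70.9 CPM in induced libraries. The groups overlapped, with a log2 fold change of -0.05 (95% interval -0.19 to 0.09, edgeR adjusted p = 0.712). EIF2AK4 (chromosome 15, 39934115 to 40035591, plus strand) shares no exon base with another gene.

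**Figure D2:**
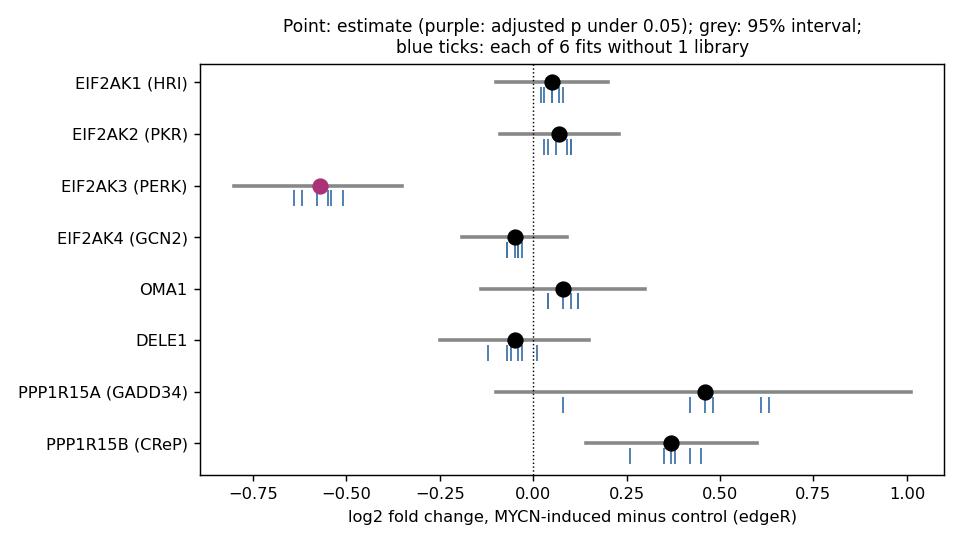
Log2 fold change of the 8 genes (MYCN-induced minus control, edgeR) with 95% intervals in grey; blue ticks are the 6 fits that each left out 1 library. EIF2AK3 is the only gene called, at -0.57; the estimate of PPP1R15A ranges from 0.08 to 0.63 over the ticks.

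Levels of different genes were compared as TPM, counts divided by exon length and scaled to the same total in each library. HRI mRNA was the most abundant of the 4 kinases, at 63.8 ± 5.64 TPM in control cells (SD, n = 3), followed by PKR at 24.0 ± 2.31, GCN2 at 10.3 ± 0.790 and PERK at 5.67 ± 0.596 TPM, and no library value of one kinase overlapped with that of the next. The same order held in the induced libraries, at 65.8, 25.2, 10 and 3.84 TPM. In sum the 4 kinases came to 104 ± 9.32 TPM in control and 105 ± 12.6 TPM in induced cells, which did not differ beyond the spread between replicates (exact permutation p = 0.9, two-sided as for all such tests here). The share of PERK in this sum was 5.54%, 5.48% and 5.37% in the control and 3.56%, 4% and 3.35% in the induced libraries. That is a difference of -1.83 percentage points (exact permutation p = 0.1, the smallest that 3 against 3 libraries allow, and 0.4 adjusted over the 4 kinases). HRI held 61.5% ± 0.224 and 62.9% ± 2.01 of the sum, PKR 23.1% ± 0.267 and 24.0% ± 1.35, and GCN2 9.98% ± 0.134 and 9.52% ± 0.330 in control and induced cells (SD, n = 3 each). The library values of the EIF2AK3 share did not overlap between the groups, and with 3 against 3 libraries this test cannot reach 0.05.

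**Figure D3:**
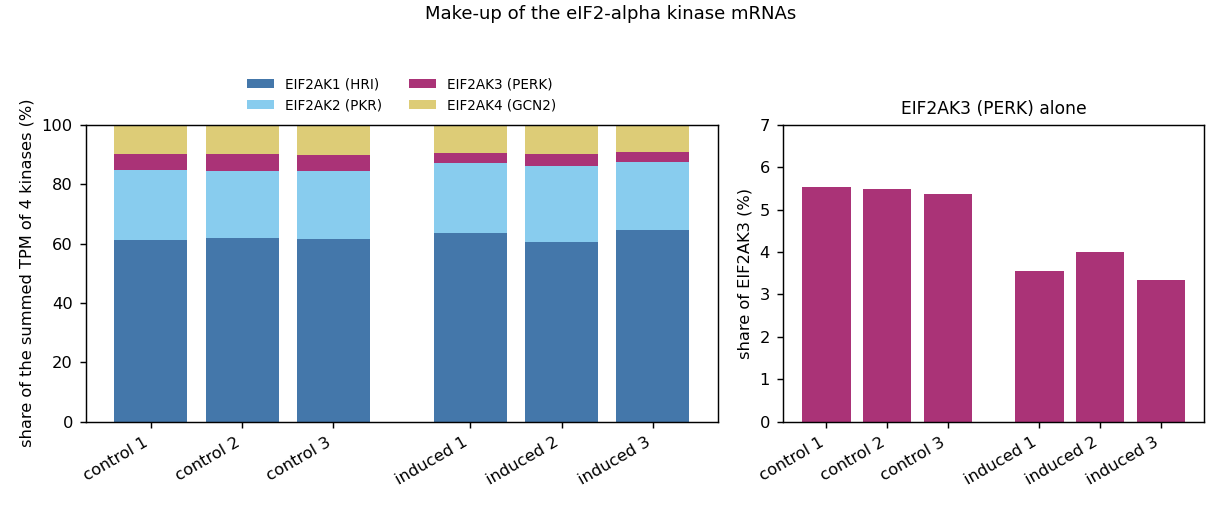
Left, share of each kinase in the summed TPM of the 4 kinases (%) in each library; right, the share of EIF2AK3 on its own axis from 0. HRI holds over 60% of the kinase mRNA in every library, and the EIF2AK3 share is 5.37% to 5.54% in control and 3.35% to 4% in induced libraries.

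The mitochondrial relay showed no difference beyond the spread. OMA1, the inner-membrane protease, was at 12.3, 11 and 11.6 CPM in control and 11.7, 12 and 13.1 CPM in induced libraries. Its log2 fold change was 0.08 (95% interval -0.14 to 0.30, edgeR adjusted p = 0.714). OMA1 (chromosome 1, 58415384 to 58546802, minus strand) shares 257 exon bases with DAB1 on the same strand, and adding or taking away the counts of DAB1 left the log2 fold change at 0.08 in both cases. DELE1, the messenger that OMA1 cleaves, was at 39.5, 41.5 and 40.3 CPM in control and at 38.4, 35.5 and 43.0 CPM in induced libraries. The induced values lay on both sides of the control range. The log2 fold change of DELE1 was -0.05 (95% interval -0.25 to 0.15, edgeR adjusted p = 0.803), and it turned to 0.01 without MYCN-induced replicate 2. DELE1 lies on chromosome 5, from 141923855 to 141942047 on the plus strand. Per length, DELE1 was at 11.1 ± 0.480 TPM and OMA1 at 5.14 ± 0.516 TPM in control cells (SD, n = 3 each), against 10.6 ± 0.365 and 5.42 ± 0.461 TPM in induced cells.

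In CPM, the off-switches had the widest spread among the induced libraries of the 8 genes, with coefficients of variation of 40.9% for PPP1R15A and 13.9% for PPP1R15B, whereas in TPM the induced values of PPP1R15B ran only from 84.4 to 86.9. PPP1R15B, which encodes CReP, the constitutive phosphatase subunit, was at 219, 216 and 209 CPM in the control and at 264, 248 and 322 CPM in the induced libraries. Each induced library lay above each control library, at 123%, 116% and 150% of the control mean. The means were 215 ± 5.52 and 278 ± 38.7 CPM (SD, n = 3 each). The log2 fold change of 0.37 (standard error 0.10, 95% interval 0.14 to 0.60) did not pass the threshold (edgeR adjusted p = 0.0937). DESeq2 gave 0.39 with an adjusted p of 0.0353. Without MYCN-induced replicate 3 the log2 fold change was 0.26 and passed the test (edgeR adjusted p = 0.0265), while the fits without another library gave adjusted p-values up to 0.322. PPP1R15B (chromosome 1, 204403381 to 204411817, minus strand) has 2 merged exons and shares no exon base with another gene.

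PPP1R15A, which encodes GADD34, was at 43.2, 46.7 and 45.3 CPM in control and at 48.6, 45.9 and 91.0 CPM in induced libraries. Only MYCN-induced replicate 3 was far from the controls, at 202% of their mean, and induced replicate 2 lay within the control range. The log2 fold change was 0.46 (standard error 0.24, 95% interval -0.10 to 1.01, edgeR adjusted p = 0.364) and 0.08 (adjusted p = 0.502) without MYCN-induced replicate 3, so that 1 library carried most of the difference. The coefficient of variation among the induced libraries was 40.9%, higher than in 98.6% of the genes with a control mean of at least 10 CPM, against 3.9% among the controls. The TPM scale carries no TMM factor and uses a total of counts per exon length. On it the values were 24.4, 24.8 and 23.1 in control and 26.7, 27.4 and 42.2 in induced libraries and did not overlap. Which of these differences from CPM set the values apart was not tested. PPP1R15A (chromosome 19, 48872421 to 48876058, plus strand) shares no exon base with another gene.

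Per length, PPP1R15B was the most abundant of the 8 genes, at 67.1 ± 5.07 TPM in control cells (SD, n = 3), where its values overlapped with those of EIF2AK1, and at 85.9 ± 1.35 TPM in induced cells, where they did not. PPP1R15A (24.1 TPM) and EIF2AK2 (24.0 TPM) overlapped in control cells, as did DELE1 (11.1 TPM) and EIF2AK4 (10.3 TPM), and EIF2AK3 (5.67 TPM) and OMA1 (5.14 TPM). In induced cells EIF2AK3 was the lowest, at 3.84 TPM, below each library value of OMA1. The summed TPM of PPP1R15A and PPP1R15B was 96.6, 91.7 and 85.2 in control and 111, 114 and 129 in induced libraries, without overlap (exact permutation p = 0.1, the smallest possible). GADD34 made up 25.2%, 27.1% and 27.1% of this sum in control and 24.0%, 24.1% and 32.7% in induced libraries, so that its share was outside the control range on both sides. The ratio of PPP1R15B to EIF2AK3, both in TPM, was 11.5, 11.9 and 12.2 in control and 22.1, 18.7 and 28.4 in induced libraries (exact permutation p = 0.1). In TPM, each induced value of PPP1R15B lay above each control value, and each of EIF2AK3 below, so the separation and the p-value of this ratio were fixed beforehand. The same holds for the sum of PPP1R15A and PPP1R15B, each of which lay above control in TPM. Neither adds to the values of the single genes. The sums, the ratio and the share of GADD34 were computed after the values of the single genes had been seen.

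**Figure D4:**
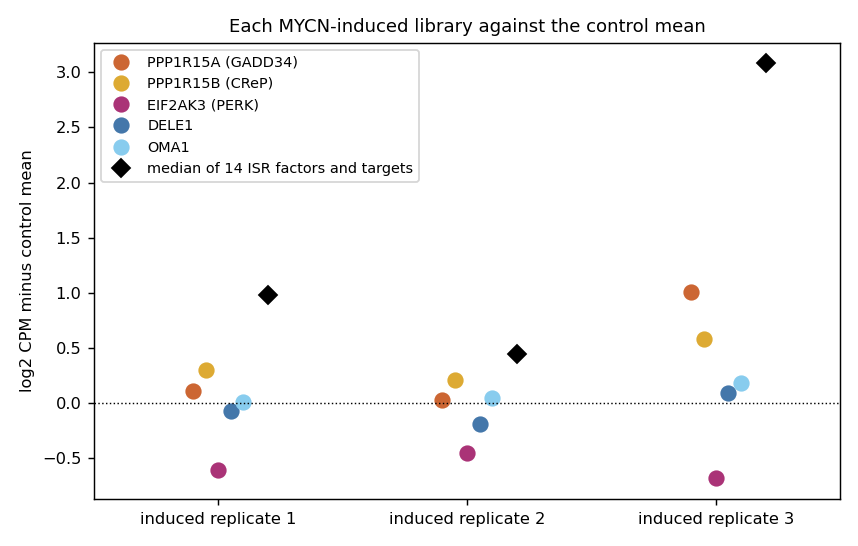
Log2 CPM minus the control mean in each of the 3 MYCN-induced libraries for 5 of the genes (circles) and the median of 14 ISR transcription factors and targets (diamonds). PPP1R15A stands at 1.01 in induced replicate 3 against 0.11 and 0.03 in replicates 1 and 2, and EIF2AK3 lies below 0 in each.

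The transcription factors and targets downstream of eIF2-alpha phosphorylation were far above control in the library in which PPP1R15A was high. Over 14 tested genes of a list of 15, the median log2 level relative to the control mean was 0.98, 0.45 and 3.08 in induced replicates 1, 2 and 3, and -0.02, -0.02 and 0.07 in the controls. ATF4, the factor whose translation rises when eIF2-alpha is phosphorylated, was at 189, 189 and 204 CPM in control and 319, 300 and 547 CPM in induced libraries, and rose (log2 fold change 1.0, edgeR adjusted p = 0.0475). The cystine transporter SLC7A11 was the other gene of the list called higher (3.52, edgeR adjusted p = 0.0494), and 0 were called lower. Both calls were lost without any 1 of the control libraries or MYCN-induced replicate 1, with edgeR adjusted p-values up to 0.212 and 0.219, and held without replicate 2 or 3, where replicate 3 moved the log2 fold change to 0.68 and 2.07. The median log2 fold change was 1.96, with 14 of 14 above 0, and 0.75 without MYCN-induced replicate 3, where 9 were called higher. That fit called 3.68% of the 28797 genes it tested higher, against 1.02% with all libraries. DDIT3, which encodes CHOP, the factor that activates PPP1R15A, was at 9.35, 8.56 and 8.43 CPM in control and at 12.4, 11.1 and 27.7 CPM in induced libraries, or 0.96 as log2 fold change (edgeR adjusted p = 0.162). DESeq2 called it (adjusted p = 0.0294), and so did edgeR without MYCN-induced replicate 3, at 0.43 (adjusted p = 0.0335). The highest log2 fold change of the list was that of NUPR1, at 4.44 (edgeR adjusted p = 0.102), where induced replicates 1, 2 and 3 had 0.848, 0.343 and 8.56 CPM. Without replicate 3 it was 1.94 (edgeR adjusted p = 0.0488). The lowest was that of ATF3, at 0.88 (edgeR adjusted p = 0.277) and 0.26 without that library, and its groups overlapped. DESeq2 called 9 of the 14 genes higher, and over all 29073 genes it tested it called 904 higher and 1199 lower. PSAT1 did not pass the count filter.

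Of the substrate of the kinases and its exchange factor, 1 of 8 subunits passed the test. EIF2S2, the beta subunit of eIF2, rose from 121, 127 and 144 CPM to 188, 197 and 233 CPM (log2 fold change 0.66 with a standard error of 0.10, edgeR adjusted p = 0.0197). It was called without MYCN-induced replicate 2 or 3, and not without any of the other 4 libraries, at log2 fold changes from 0.56 to 0.73. EIF2S1, the alpha subunit that the kinases phosphorylate, was at 187, 186 and 185 CPM in control and 212, 228 and 211 CPM in induced libraries, without overlap (log2 fold change 0.22, edgeR adjusted p = 0.098, and 0.0311 without MYCN-induced replicate 3). Of the 8 eIF2 and eIF2B subunits, 1 was called higher and 0 lower, 7 had a log2 fold change above 0, 5 had groups without overlap (26.3% of all genes tested did), and the median was 0.15. EIF2S3, the gamma subunit, was at 580, 561 and 545 CPM in control and 629, 597 and 761 CPM in induced libraries (log2 fold change 0.24, edgeR adjusted p = 0.243, and 0.13 without MYCN-induced replicate 3). The lowest was EIF2B4, a subunit of the exchange factor, at -0.03 (adjusted p = 0.886). EIF2S1 and EIF2S2 were called higher without MYCN-induced replicate 3 and by DESeq2. Over all genes tested, edgeR called 1.02% higher with all libraries and 3.68% higher without that replicate. DESeq2 called 7.23% of the genes it tested, higher or lower. None of the 3 catalytic subunits of PP1, with which GADD34 and CReP act, passed the test (0 higher, 0 lower, median 0.09), from PPP1CA at 0.01 to PPP1CB at 0.13.

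**Figure D5:**
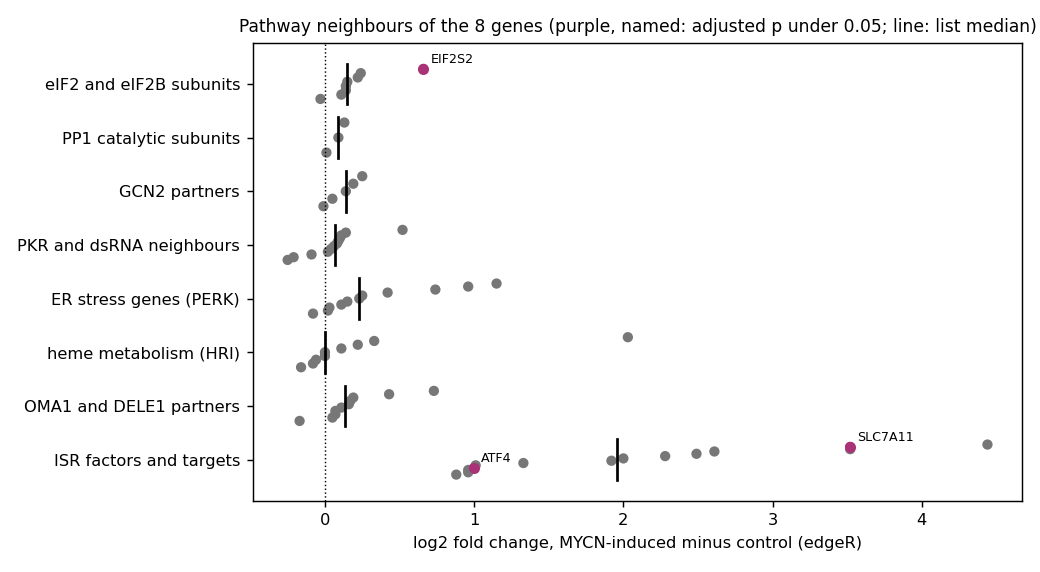
Log2 fold change (MYCN-induced minus control, edgeR) of the tested genes of 8 lists of pathway neighbours; the vertical line is the median of a list, and genes called at an adjusted p under 0.05 are purple and named. EIF2S2 (0.66), ATF4 (1.0) and SLC7A11 (3.52) are the genes called.

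The signals that feed each kinase were described with short lists, and of their 47 tested genes 0 were called by edgeR. At an unadjusted p under 0.05 from edgeR there were 13, beside 18.7% of all genes tested. Over all genes, DESeq2 called 7.23% of those it tested, higher or lower. Of the listed genes it called 5 of the 46 it tested, all higher. These were IFIH1, XBP1, DNAJB9, UROS and LONP1, at DESeq2 adjusted p-values of 0.00635, 0.0397, 0.0317, 0.0282 and 0.0317. Among 11 genes of the endoplasmic reticulum stress response around PERK, 10 had a log2 fold change above 0, with a median of 0.23, and 6 had groups without overlap, beside 26.3% of all genes tested. HERPUD1, which takes part in disposal of misfolded proteins, had the largest, at 1.15 (edgeR adjusted p = 0.159), with 33.3, 32.8 and 32.3 CPM in control and 50.8, 40.4 and 128 CPM in induced libraries. XBP1, the target of the sister sensor ERN1, was at 56.4, 53.2 and 51.1 CPM against 80.7, 59.9 and 172 CPM (log2 fold change 0.96, edgeR adjusted p = 0.182). Without MYCN-induced replicate 3 the log2 fold changes were 0.48 for HERPUD1 and 0.40 for XBP1. The sensors ERN1 and ATF6 were at 0.25 (adjusted p = 0.59) and 0.23 (adjusted p = 0.282), and HSPA5, the chaperone that holds PERK inactive, was at 0.03 (adjusted p = 0.902). The lowest of the list was SDF2L1, at -0.08 (adjusted p = 0.866). ERN1 was at 22.2, 22.8 and 22.2 CPM in control and 22.3, 20.4 and 37 CPM in induced libraries, and its log2 fold change was -0.06 without MYCN-induced replicate 3. Without MYCN-induced replicate 3 the median of the list was 0.12 and HERPUD1 was called higher. That fit called 3.68% of 28797 genes higher. It was the only 1 of the 6 fits without 1 library to call HERPUD1, and DESeq2 did not call it (adjusted p = 0.22).

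The 5 GCN2 partners had a median of 0.14, from GCN1, the ribosome-bound activator of GCN2, at -0.01 (edgeR adjusted p = 0.946) to RWDD1 at 0.25 (adjusted p = 0.216). The 12 tested activators of PKR and other genes of double-stranded RNA sensing had a median of 0.07. They ran from MX1, an interferon-induced gene at 0.156 CPM in control cells, at -0.25 (adjusted p = 0.739) to the RNA sensor IFIH1 at 0.52 (adjusted p = 0.0722). PRKRA, the protein activator of PKR, was at 0.14 (adjusted p = 0.272), and OAS1 did not pass the count filter. The 9 genes of heme metabolism had a median of -0.00, with the largest value for HMOX1, the heme-degrading enzyme, at 2.03 (adjusted p = 0.218). HMOX1 was at 8.94, 7.51 and 68.5 CPM in the induced libraries against 6.35, 7.42 and 7.04 CPM in control, and its log2 fold change was 0.25 without MYCN-induced replicate 3. The lowest was PPOX, at -0.16 (adjusted p = 0.474). The 10 mitochondrial genes listed as partners of OMA1 and DELE1 had a median of 0.13. LONP1, a matrix protease, had the largest value, at 0.73 (adjusted p = 0.132), and SPG7, a subunit of an inner-membrane protease, the lowest, at -0.17 (adjusted p = 0.254). LONP1 was at 59.2, 84.6 and 97.8 CPM in control and 105, 122 and 173 CPM in induced libraries. Its log2 fold change was 0.54 without control replicate 1 and 0.50 without MYCN-induced replicate 3. It was called in 0 of the 6 fits without 1 library. OPA1, the fusion protein that OMA1 cleaves, was at 0.16 (adjusted p = 0.257). Without MYCN-induced replicate 3, UROS of the heme list, AFG3L2 of the mitochondrial list and PPP1CC of the PP1 subunits were called higher, in the fit that called 3.68% of all genes higher. The part of replicate 3 in these values beyond leaving it out was not tested.

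The genes whose levels followed EIF2AK3 most closely over the 6 libraries were PLS3, CLCN5 and LIFR-AS1. Likeness was the mean absolute difference of their log2 CPM, each taken relative to its control mean, and came to 0.028, 0.035 and 0.036 on the log2 scale. PLS3, an actin-bundling protein, had means of 142 and 98.2 CPM in control and induced libraries (log2 fold change -0.53, edgeR adjusted p = 0.0206). CLCN5, a chloride-proton exchanger of endosomes, was at 124 and 80.9 CPM (-0.61, adjusted p = 0.00701), and LIFR-AS1, an antisense RNA, at 2.62 and 1.83 CPM (-0.52, adjusted p = 0.0623). They were picked for this likeness, so their fall is a description. The call of PLS3 held in 2 of the 6 fits without 1 library, those without MYCN-induced replicate 2 or 3, and that of CLCN5 in 5, with an edgeR adjusted p of 0.0597 without control replicate 2.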

How the data were processed

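Total RNA, after enzymatic removal of ribosomal RNA, was sequenced in 3 control and 3 MYCN-induced libraries from SK-N-AS cells. The authors deposited estimated counts per gene. Per the file headers they were made from unique alignments with featureCounts 1.6.4 over exons, with fractional sharing between overlapping genes and no strand option, whereas the labels name STAR 2.7.1a and featureCounts 1.5.1. The methods of the study name counting by strand, which the headers do not show. Symbols were taken from GENCODE release 44, which matched 99.72% of 60651 identifiers, and coordinates are those of the files (GRCh38). The 92 spike-in sequences had 0 counts and were left out.

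Groups and replicate numbers come from the sample titles. The study describes the replicates as biologically independent. Replicates differed by more than sampling noise (chi-square per gene from 12.1 to 146). Counts were rounded. A gene needed 10 or more counts in 3 or more libraries, which left 29086 genes for edgeR 4.0.16 under R 4.3.3 (TMM, quasi-likelihood test without a replicate block, Benjamini-Hochberg adjustment over all genes, threshold 0.05). The standard error is the size of the log2 fold change divided by the square root of F, and 95% intervals use the total degrees of freedom of the test. TPM were computed from unrounded counts and exon lengths.

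The 8 genes and all lists were chosen with earlier results of these data known. Named genes were the 8 members, MYCN, genes of the lists that were called or had the largest or smallest change, and the 3 genes most like each member called or changed at least 1.5-fold. Other named genes, such as the other sensors, EIF2S1, DDIT3, XBP1 and PRKRA, were added for their role after their values were seen. Alternatives were DESeq2 1.42.0, library size only, upper-quartile normalization, other count filters, unrounded counts, genes without shared exons, a replicate block, a threshold of 0.1 and leaving out each library. Some genes of the marker lists are not reported here.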

Additional observations from a re-analysis of the deposited data

How the results depend on the processing

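EIF2AK3 kept its direction in all 15 alternatives, with log2 fold changes from -0.64 to -0.51 and adjusted p-values from 4.873e-05 to 0.145, and was called in 11 of them. Leaving out each library in turn gave this whole range of log2 fold changes, and called it in 2 of 6. For PPP1R15B those fits gave 0.26 to 0.45 and called it in 1, without MYCN-induced replicate 3 (0.26), and DESeq2 called it at 0.39. For PPP1R15A they gave 0.08 to 0.63 with no call, and for DELE1 -0.12 to 0.01, with a turn of sign without MYCN-induced replicate 2. EIF2AK1 turned to -0.02 when the counts of its overlapping gene were taken away. EIF2AK2, EIF2AK4 and OMA1 kept their sign and were not called in any alternative run.

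The number of the 8 genes called higher was 0, and 1 with DESeq2 or at a threshold of 0.1 (PPP1R15B in both), with 0 to 1 in the fits without 1 library. The number called lower was 1, and 0 to 1 in the fits without 1 library. It was 0 among genes that share no exon base, where EIF2AK3 was not tested. At an unadjusted p under 0.05 from edgeR, 2 of the 8 passed, against 18.7% of all genes tested. Over all genes, edgeR called 298 higher and 692 lower, DESeq2 904 and 1199, fits without 1 library 18 to 1060 higher and 72 to 1279 lower (the most without MYCN-induced replicate 3), and the stricter filter of 100 counts in every library 227 and 404. Without a count filter 470 and 811 were called.

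With the replicate block, EIF2AK3 was at -0.58 (edgeR adjusted p = 0.0351) and PPP1R15B at 0.36 (adjusted p = 0.114), with 1 gene of the 8 called lower and 0 higher, and 265 genes higher and 575 lower in all. The deviations of same-numbered libraries from their group means correlated across genes at 0.22, -0.02 and 0.07. Those of differently numbered libraries correlated at -0.19 to 0.08. These few values do not settle whether the numbers pair the libraries, and the main fit took no pairing.

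The share of PERK in the kinase mRNA was lower in induced cells in each alternative. The lowest count of any of the 8 genes in any library was 762. EIF2AK1, EIF2AK2, EIF2AK3 and OMA1 could not be fitted among genes that share no exon base.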
